A study of Mus musculus with 6 samples.

Results

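The insulin-like growth factor (IGF) signalling genes described here are 10 listed symbols: the ligand gene Igf1, the receptor genes Igf1r and Insr, the insulin receptor substrates Irs1 and Irs2, and the binding protein genes Igfbp3, Igfbp4, Igfbp5, Igfbp6 and Igfbp7. Each symbol was matched to 1 Ensembl identifier through the GENCODE M21 annotation, which gave 10 of the 55401 identifiers in the count table. All 10 passed the filter on low counts, which left 17222 genes to test.

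RNA-seq libraries came from tibialis anterior (TA) muscle of male C57BL/6 mice of the genotype HSA-MCM-Bmal1-/- (iMSBmal1-/-). The study asked what RBM20, a splicing regulator of titin, does when it is overexpressed in muscle that lacks the clock factor BMAL1. All 6 samples came from mice given tamoxifen (2 mg daily over 5 days), starting at 12 to 16 weeks of age, to delete Bmal1. The Cre recombinase is driven by the HSA promoter in skeletal muscle fibres, so that the other cells of the tissue keep the gene, and a group with intact Bmal1 was not analysed here. At 4 weeks after tamoxifen, the TA was injected with an adeno-associated virus (AAV) coding for GFP (AAV-GFP, n = 3) or for HA-tagged mouse RBM20 under the CMV promoter (AAV-RBM20, n = 3), and muscle was collected 4 weeks later. The RBM20 vector was given at a higher number of genome copies, so that vector dose and transgene cannot be told apart. The labels do not say whether the samples of a group came from separate animals, and p-values measure only the spread between these samples. In the paper's blots of this AAV experiment, some animal numbers appear with both vectors, on opposite sides. Whether a sequenced AAV-GFP and AAV-RBM20 sample share an animal is not stated. The test without a block takes all 6 samples as independent.

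IGF1 is made by the liver for the circulation and also locally in muscle, where it promotes growth and repair. It binds the receptor IGF1R, a relative of the insulin receptor INSR, and both receptors signal by phosphorylating IRS1 and IRS2, which recruit PI3K and through it activate AKT. IGF-binding proteins hold IGFs outside the cell, and depending on the protein and the tissue they withhold the ligand from its receptor or keep it nearby.

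Each library held between 41400132 and 54226618 counts. Rbm20 was measured at 164 to 170 CPM (the count relative to the TMM-scaled library size) in AAV-GFP and at 406 to 545 CPM in AAV-RBM20, a log2 fold change of 1.54 ± 0.15 (SE). Its Benjamini-Hochberg adjusted p in edgeR's quasi-likelihood test was 0.121, and 0.0107 when the replicate number was a block. Endogenous and vector-borne Rbm20 reads cannot be told apart. Arntl, the gene of BMAL1, was measured at 31.0 to 38.1 CPM in AAV-GFP and at 24.5 to 27.6 CPM in AAV-RBM20 (log2 fold change -0.41 ± 0.13, edgeR, adjusted p = 0.618), and without a group with intact Bmal1 this does not check the deletion. The libraries numbered 3 stood apart in both groups. Titin, Ttn, took 4.48% and 9.05% of their counts against 16.9% to 17.8% in the other 4, and mitochondrial genes took 12.5% and 11.4% against 6.41% to 7.66%. Of the defining markers of the tissue, all 8 fast fibre genes were detected in every library, with a summed level of 98855 to 107911 CPM in AAV-GFP and of 63545 to 94676 CPM in AAV-RBM20. No gene of the 17222 passed an adjusted p of 0.05 in edgeR and 25 did with the replicate block, or 75 in DESeq2 without a block, while 1360 had an unadjusted p under 0.05 in edgeR without a block, 702 of them higher and 658 lower in AAV-RBM20. With upper quartile factors in place of TMM that split became 865 higher and 504 lower.

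None of the 10 IGF signalling genes differed between AAV-RBM20 and AAV-GFP past an adjusted p of 0.05, where the share over all genes tested was 0%. Their log2 fold changes ran from -0.18 for Irs1 to 0.23 for Igf1r, with 5 above and 5 below 0 and a median of -0.003, beside 0.009 over all genes tested. The adjusted p-values of edgeR's quasi-likelihood test ran from 0.700 to 0.994. None of the 10 had an unadjusted p under 0.05, against 7.90% of all genes, and the smallest of their unadjusted p-values in edgeR was 0.200, for Irs1. None had group ranges that did not overlap, whereas 7.71% of all genes were higher and 9.04% lower in AAV-RBM20 without overlap. Treating the replicate number as a block left the 10 genes without a call, beside 0.145% of all genes called, and none had an unadjusted p under 0.05, beside 18.8% of all genes.

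**Figure D1:**
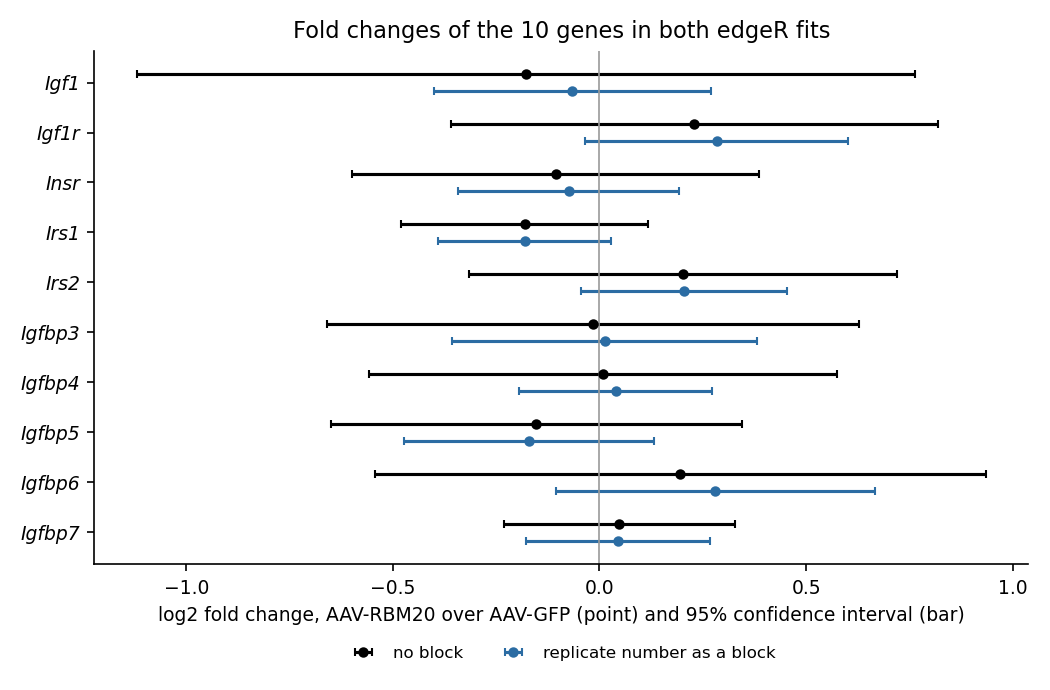
Log2 fold change of each gene, AAV-RBM20 over AAV-GFP (points), with its 95% confidence interval (bars), from edgeR without a block (black) and with the replicate number as a block (blue), 3 libraries per group. Every interval spans 0, and the interval of Igf1 is the widest of the 10 without the block.

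Without the block, Irs1 and Igfbp7 were the most narrowly bounded, with 95% confidence intervals of the log2 fold change of -0.48 to 0.12 and of -0.23 to 0.33. Igf1 was the least bounded in that fit, at -1.12 to 0.76, which as a fold runs from 0.460 to 1.70. With the replicate number as a block its interval was -0.40 to 0.27, or 0.757 to 1.21 as a fold, and Igfbp6 was then the least bounded, at -0.11 to 0.67.

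Igf1 (ENSMUSG00000020053, GRCm38 chr10:87858265-87937042) encodes the ligand. It was measured at 16.4, 19.6 and 47.3 CPM in AAV-GFP and at 19.9, 19.9 and 34.0 CPM in AAV-RBM20, in the order of the replicate numbers 1 to 3. The library numbered 3 was the highest of its group in both groups, at 2.64 times the mean of the other 2 libraries in AAV-GFP and 1.71 times in AAV-RBM20, and the groups overlapped. On the log2 scale AAV-RBM20 differed from AAV-GFP by -0.18 ± 0.41 (SE). The adjusted p in edgeR was 0.909, and the two-sided exact permutation test, which cannot go below 0.1 for 3 against 3, gave p = 1. Within same-numbered libraries Igf1 was at 1.21 and 1.02 times its AAV-GFP level in those numbered 1 and 2, and at 0.717 times in those numbered 3. Without both libraries numbered 3 the sign turned, to a log2 fold change of 0.15 ± 0.10 (edgeR, 2 against 2, adjusted p = 0.475).

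**Figure D2:**
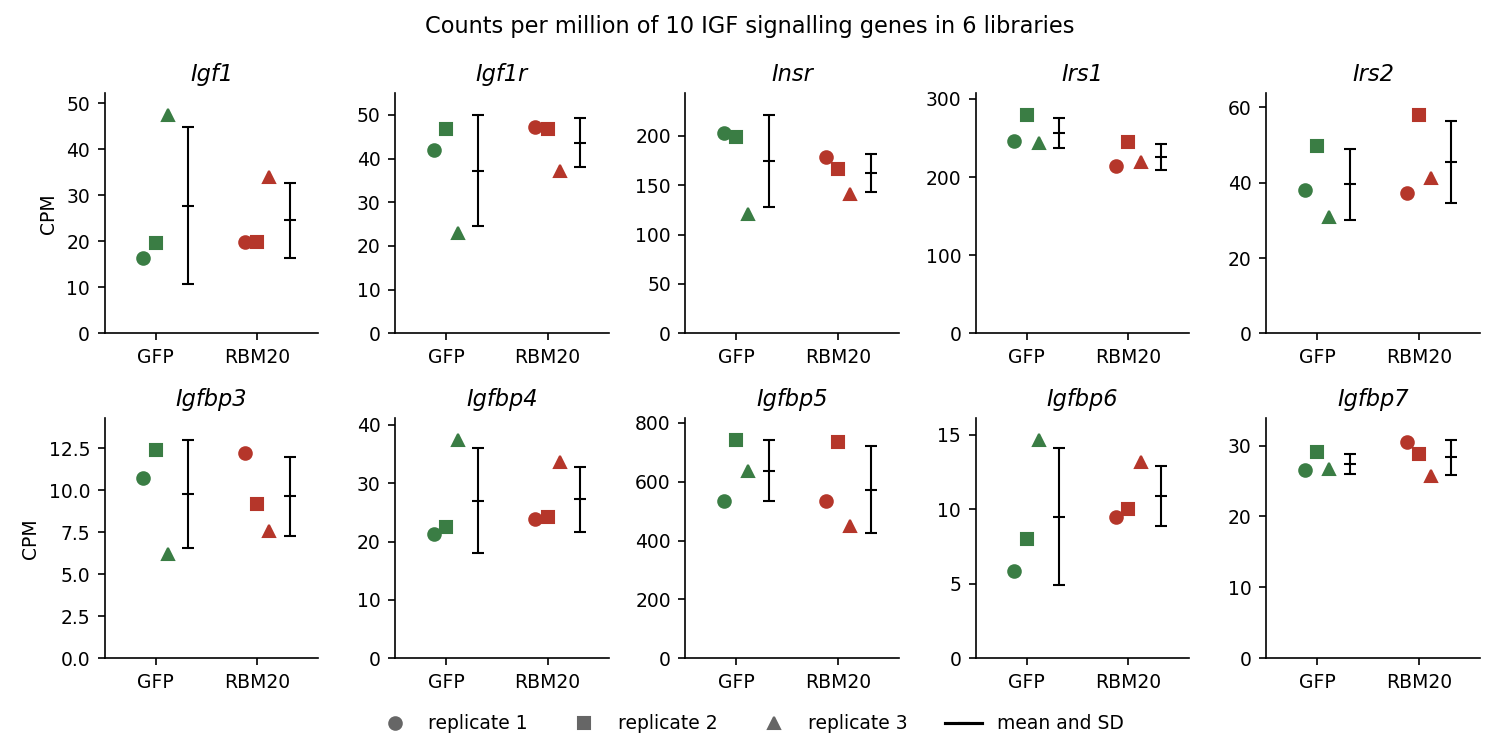
CPM of each of the 10 genes (vertical axes from 0, one scale per gene) in the 3 AAV-GFP libraries (green) and the 3 AAV-RBM20 libraries (red); symbols mark the replicate number, and black bars show the mean and SD. The groups overlap for all 10 genes, and the triangles, libraries numbered 3, lie at the top for Igf1, Igfbp4 and Igfbp6 and at the bottom for Igf1r, Insr and Igfbp3.

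The receptor gene Igf1r (ENSMUSG00000005533, chr7:67952827-68233668) was measured at 42.0, 46.8 and 22.9 CPM in AAV-GFP and at 47.2, 46.6 and 37.1 CPM in AAV-RBM20. Its log2 fold change of 0.23 ± 0.26 was the highest of the 10, with an adjusted p of 0.798 (edgeR), and the AAV-GFP library numbered 3 was its lowest value. Without that library the log2 fold change of Igf1r was -0.03, and without both libraries numbered 3 it was 0.09 ± 0.07. Insr (ENSMUSG00000005534, chr8:3122061-3279617), the insulin receptor, was measured at 203, 199 and 121 CPM in AAV-GFP and at 179, 167 and 141 CPM in AAV-RBM20. Both receptors were lowest in the libraries numbered 3 of both groups. The log2 fold change of Insr was -0.11 ± 0.21, with an adjusted p of 0.895 (edgeR). With both libraries numbered 3 left out it was -0.21 ± 0.06, with a 95% interval of -0.36 to -0.07 and an adjusted p of 0.0986 in edgeR.

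Both receptor genes were low in the libraries numbered 3, and within each group their ratio varied less, relative to its mean, than either level. This ratio and 3 others were chosen after the values were seen. Per exonic length, as CPM per kilobase of merged exons (RPKM), Insr was at 5.91, 5.19 and 6.45 times Igf1r in AAV-GFP and at 4.62, 4.36 and 4.65 times in AAV-RBM20. The mean ratio was 5.85 ± 0.63 (SD, n = 3) in AAV-GFP and 4.54 ± 0.16 (SD, n = 3) in AAV-RBM20, and the groups did not overlap. The two-sided exact permutation test gave p = 0.1, the smallest that 3 against 3 allows, and 0.4 after Benjamini-Hochberg adjustment over the 4 ratios. Every AAV-RBM20 library held fewer Insr reads per Igf1r read than every AAV-GFP library. With a smallest p of 0.1, this permutation test could not pass 0.05 before or after adjustment, so it decides nothing here. The adjustment covers only the 4 ratios chosen, and the share of all gene pairs whose ratios do not overlap was not computed. The difference of the mean log2 ratio was -0.36, and -0.30 without both libraries numbered 3.

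**Figure D3:**
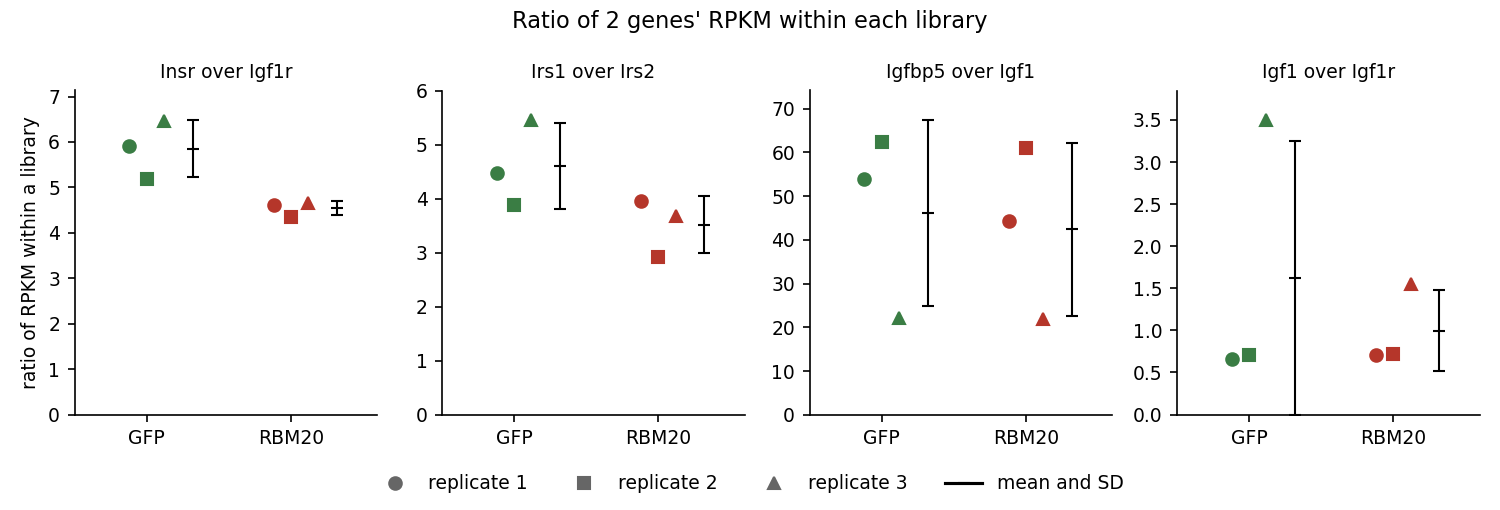
Ratio of the RPKM of 2 genes within each library (vertical axes, linear), for 4 pairs of genes, in AAV-GFP (green) and AAV-RBM20 (red) libraries; symbols mark the replicate number and black bars the mean and SD of 3 libraries. Insr over Igf1r is the pair whose groups do not overlap, at 5.19 to 6.45 against 4.36 to 4.65.

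Irs1 was steadier over the libraries than Irs2. Irs1 (ENSMUSG00000055980, chr1:82233101-82291416) was measured at 246, 279 and 244 CPM in AAV-GFP and at 214, 245 and 219 CPM in AAV-RBM20. It was lower in AAV-RBM20 in each of the 3 same-numbered comparisons, at 0.869, 0.879 and 0.899 times the AAV-GFP level, while the groups overlapped. Igfbp5 was also lower in all 3, at 0.998, 0.993 and 0.708 times. The share of all genes with this pattern was not computed. The log2 fold change of Irs1 was -0.18 ± 0.13, with an adjusted p of 0.700 (edgeR) and an exact permutation p of 0.2. Of the exonic bases of Irs1, 30.9% are shared with Gm9747 on the opposite strand, which held at most 2 counts in a library. Irs2 (ENSMUSG00000038894, chr8:10984681-11008458) was measured at 38.0, 49.7 and 30.9 CPM in AAV-GFP and at 37.3, 57.9 and 41.3 CPM in AAV-RBM20, with the libraries numbered 2 highest in both groups. Its log2 fold change was 0.20 ± 0.22, with an adjusted p of 0.798 (edgeR). Per exonic length, Irs1 stood at 4.61 ± 0.79 (SD, n = 3) times Irs2 in AAV-GFP and at 3.52 ± 0.53 times in AAV-RBM20, with overlapping groups and an exact permutation p of 0.2, or 0.4 adjusted over the 4 ratios.

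Irs1 and Irs2 were also the members whose promoters held the E-box CACGTG, the motif that BMAL1 binds together with CLOCK and that is its own reverse complement. These windows are shown because Bmal1 was deleted in all 6 samples; no comparison here tests the motif. RefSeq promoters on GRCm38.p6, 250 bases before to 50 after the start, were found for 9 of the 10 members, and 2 of the 9 held the motif, beside 7.15% of all 32851 promoters in the table. The motif begins 115 bases before the RefSeq start in Irs1 (chr1:82291522-82291581, minus strand) and 44 bases before it in Irs2 (chr8:11008941-11009000, minus strand). A match is a description of these letters and not a site of binding. The E-box is in capitals.
Irs1: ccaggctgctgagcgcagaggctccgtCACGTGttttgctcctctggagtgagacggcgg
Irs2: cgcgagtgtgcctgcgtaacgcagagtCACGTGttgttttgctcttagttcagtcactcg

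Among the binding proteins, Igfbp5 (ENSMUSG00000026185, chr1:72857932-72874884), the most abundant in these muscles, was measured at 534, 742 and 635 CPM in AAV-GFP and at 534, 737 and 450 CPM in AAV-RBM20. The libraries numbered 1 and 2 nearly coincided between the groups, at 0.998 and 0.993 times, while those numbered 3 stood at 0.708 times. Its log2 fold change of -0.15 ± 0.22 (edgeR, adjusted p = 0.844) was 0.004 without the AAV-RBM20 library numbered 3.

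Igfbp4 (ENSMUSG00000017493, chr11:99041244-99054392), known mainly for withholding IGFs from their receptor, was measured at 21.3, 22.4 and 37.4 CPM in AAV-GFP and at 23.8, 24.2 and 33.6 CPM in AAV-RBM20. Igfbp6 (ENSMUSG00000023046, chr15:102144362-102149511), whose product prefers IGF2 over IGF1, was measured at 5.85, 8.00 and 14.6 CPM in AAV-GFP and at 9.48, 10.1 and 13.2 CPM in AAV-RBM20. Both were highest in the libraries numbered 3, as Igf1 was. Their log2 fold changes were 0.01 ± 0.25 and 0.20 ± 0.32, with adjusted p-values of 0.994 and 0.868 in edgeR. Igfbp6 was at 1.62 and 1.26 times its AAV-GFP level in the libraries numbered 1 and 2 and at 0.901 times in those numbered 3. With both libraries numbered 3 left out (2 against 2), its log2 fold change was 0.50 ± 0.15, with a 95% interval of 0.16 to 0.84 and an adjusted p of 0.103 in edgeR. In that setting 18.5% of all genes had an unadjusted p under 0.05.

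Igfbp3 (ENSMUSG00000020427, chr11:7206086-7213923), the main carrier of IGFs in blood, was measured at 10.7, 12.4 and 6.21 CPM in AAV-GFP and at 12.2, 9.18 and 7.58 CPM in AAV-RBM20, lowest in the libraries numbered 3. Its log2 fold change was -0.02 ± 0.28 (edgeR, adjusted p = 0.991), and it turned to 0.02 with upper quartile factors. Igfbp7 (ENSMUSG00000036256, chr5:77349240-77408041), a relative that binds IGFs weakly, varied least. It was measured at 26.5, 29.0 and 26.7 CPM in AAV-GFP and at 30.5, 28.8 and 25.7 CPM in AAV-RBM20, and its log2 fold change was 0.05 ± 0.12 (edgeR, adjusted p = 0.921). Of its exonic bases, 7.03% are shared with Polr2b on the opposite strand, which held 1735 to 2682 counts.

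Compared per exonic length, the 10 genes spanned a wide range of levels. The mean over 6 libraries was 101 RPKM for Igfbp5, 26.4 for Irs1, 23.0 for Igfbp7, 12.2 for Insr, 9.18 for Igfbp6, 6.72 for Irs2, 6.14 for Igfbp4, 3.11 for Igfbp3, 2.64 for Igf1 and 2.41 for Igf1r. In this order the ranges of neighbours were separate at 3 places, namely Igfbp5 above Irs1, Igfbp7 above Insr and Igfbp4 above Igfbp3. At the other places the ranges of neighbours overlapped, so that, for example, Irs1 and Igfbp7 or Igf1 and Igf1r cannot be ordered beyond their spread. Igf1r was above Igf1 in 4 libraries and Igf1 above Igf1r in the 2 libraries numbered 3, where the ratio of Igf1 to Igf1r was 3.50 in AAV-GFP and 1.55 in AAV-RBM20, against 0.661 to 0.722 elsewhere. This order depends on the merged length of all annotated exons, and which transcripts were expressed was not tested. In CPM, Igf1 was above Igf1r in AAV-GFP 3 (47.3 against 22.9) but below it in AAV-RBM20 3 (34.0 against 37.1).

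**Figure D4:**
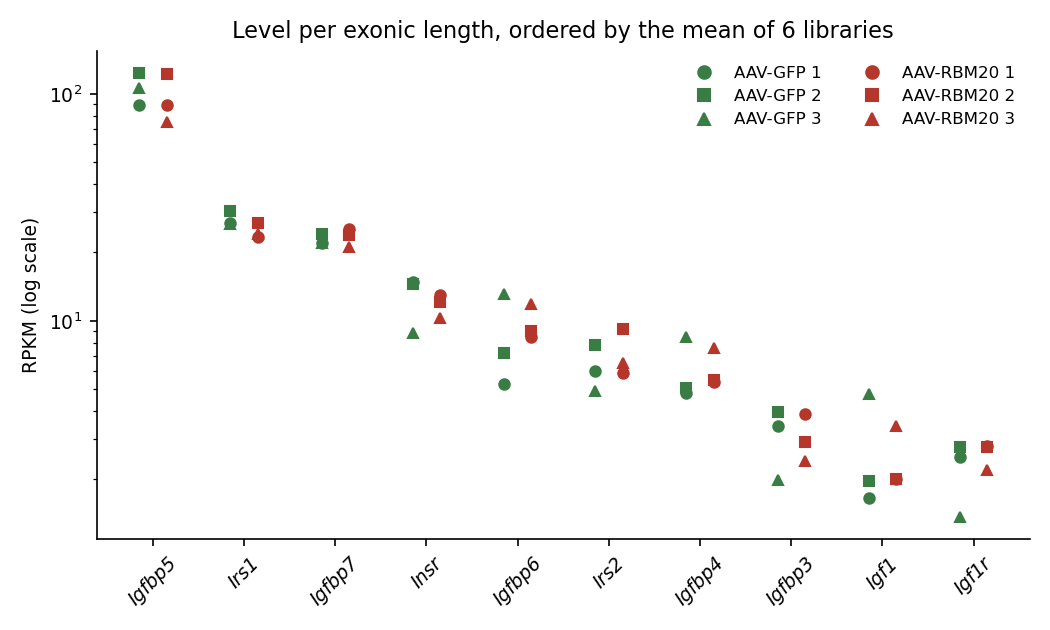
Level of each gene per kilobase of exons (RPKM, log scale) in the 6 libraries, with genes ordered by their mean; color marks the group and symbols the replicate number. Igfbp5 lies above all others in every library, at 74.9 to 124 RPKM, and Igf1r and Igf1 lie at the low end.

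Igfbp5 was also the bulk of the binding protein transcripts. Of the summed RPKM of the 7 genes Igfbp1 to Igfbp7, which was 118 to 164 per library, Igfbp5 held 63.4% to 75.4%, Igfbp7 14.5% to 19.1%, Igfbp6 4.23% to 10.1%, Igfbp4 3.10% to 6.44% and Igfbp3 1.31% to 2.96%. Igfbp1 and Igfbp2, which the liver secretes, were at or near 0 in all libraries, with at most 0.0182% and 0.0321% of the sum, and did not pass the filter on low counts.

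For 6 of the members the libraries numbered 3 stood on the same side of the other libraries in both groups. Of the 10, 3 were above both other libraries of their group in both groups (Igf1, Igfbp4 and Igfbp6), a pattern shown by 28.5% of all genes, and 3 were below both (Igf1r, Insr and Igfbp3), shown by 26.2% of all genes. The members' shares were therefore close to those of all genes. With both libraries numbered 3 left out, none of the 10 genes passed an adjusted p of 0.05, beside 4.00% of 17250 genes, and 2, Insr and Igfbp6, had an unadjusted p under 0.05, beside 18.5%.

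**Figure D5:**
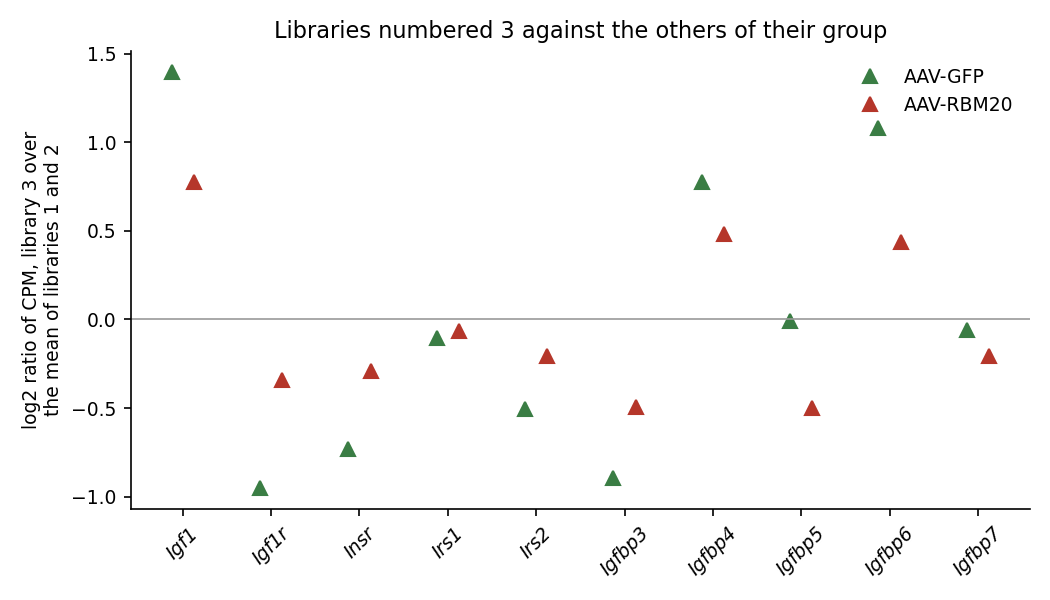
Log2 ratio of the CPM in the library numbered 3 to the mean of the libraries numbered 1 and 2 (vertical axis), for each gene in AAV-GFP (green) and AAV-RBM20 (red). Igf1, Igfbp4 and Igfbp6 lie above 0 and Igf1r, Insr and Igfbp3 below 0 in both groups, each farther from 0 in AAV-GFP than in AAV-RBM20.

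Markers of macrophages, adipocytes and endothelium moved with the same libraries, and those of other cell types did so in part or not at all. The summed level of 10 macrophage markers was 33.6 and 35.4 CPM in the AAV-GFP libraries numbered 2 and 1 and 111 CPM in that numbered 3, and 73.7, 82.9 and 174 CPM in AAV-RBM20. All 10 were highest in the library numbered 3 of both groups, and all 10 had a higher mean in AAV-RBM20. Over all genes tested, 8829 of 17222 had a log2 fold change above 0. The 10 markers of fibro-adipogenic progenitors and fibroblasts summed to 764 to 1688 CPM in AAV-GFP and to 1287 to 1537 CPM in AAV-RBM20. Of these, 5 were highest in the libraries numbered 3, beside 28.5% of all genes, and 9 had a higher mean in AAV-RBM20. Of 8 endothelial markers, 7 were lowest in the libraries numbered 3, beside 26.2% of all genes, and 7 had a higher mean in AAV-RBM20. Their sum was 204 to 485 CPM in AAV-GFP and 313 to 458 CPM in AAV-RBM20. All 5 adipocyte markers were highest in the libraries numbered 3, and 0 had a higher mean in AAV-RBM20. They summed to 0.295 to 13.2 CPM in AAV-GFP and 0.843 to 7.82 CPM in AAV-RBM20, with Adipoq, Retn and Lep at 0 in at least 1 library. Of 6 pericyte and smooth muscle markers, 2 were highest and 3 lowest in the libraries numbered 3 of both groups. Of 5 tendon markers 2 were highest there, and of 7 satellite cell and regenerating fibre markers 3 were lowest. Of 6 slow fibre markers 1 was lowest, and of 4 Schwann markers 0 were highest or lowest. A higher mean in AAV-RBM20 was shown by 1 of 8 fast fibre, 5 of 6 slow fibre and 4 of 5 tendon markers. The same held for 5 of 7 satellite cell, 3 of 6 pericyte, 2 of 4 Schwann and 0 of 3 hepatocyte markers. Hepatocyte markers, for the organ that makes circulating IGF1, summed to at most 7.45 CPM. The part of these cells in the levels of Igf1, Igfbp4, Igfbp6 and the other members was not tested, and in bulk tissue fewer cells of a type and less RNA per cell cannot be told apart.

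By root mean square difference of log2 CPM centred on each gene's mean over the 6 libraries, the genes most like Igf1 were Slc25a30 (0.080), a mitochondrial carrier, Aldh1a1 (0.098), a retinaldehyde dehydrogenase, and Tceal9 (0.135), against a median of 0.543 over 11555 genes. Aldh1a1 was measured at 77.9, 85.1 and 196 CPM in AAV-GFP and at 81.1, 85.9 and 129 CPM in AAV-RBM20, so that it shared with Igf1 the high libraries numbered 3. Among the members themselves, Igfbp6 was closest to Igf1 (0.239), and Igfbp4 and Igfbp6 were closest to each other (0.197). Insr and Igfbp3 were closest to each other (0.146), as were Irs1 and Igfbp7 (0.150), the steadiest pair. Igfbp3 was also the closest to Igf1r (0.185), Irs1 to Igfbp5 (0.184) and Igf1r to Irs2 (0.261). These are descriptions over 6 libraries that differ in depth and composition, and the part of such differences in the likeness was not tested.

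The wider pathway was described from a list of 60 other genes, from ligand supply to AKT outputs. Of these, 54 were tested and none passed an adjusted p of 0.05, beside 0% of all genes. Their median log2 fold change was -0.08, with 22 above and 32 below 0, and 4 had group ranges entirely higher and 10 entirely lower in AAV-RBM20, or 7.41% and 18.5% of those tested beside 7.71% and 9.04% of all genes. In edgeR 4 genes were higher and 6 lower with an unadjusted p under 0.05, together 18.5% of those tested beside 7.90% of all genes. The median SE of the tested pathway genes was smaller, at 0.166 beside 0.228 for all genes. The list was also chosen with earlier results of these data known, so these shares are not read as an excess. The reason for the larger shares was not tested.

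Igf2, the second IGF ligand, was low, at 0.418, 0.839 and 1.04 CPM in AAV-GFP and at 2.33, 1.92 and 0.906 CPM in AAV-RBM20. Its log2 fold change of 1.15 ± 0.45 was the largest of the pathway list, with an adjusted p of 0.618 (edgeR), and its exons overlap an antisense gene and a same-strand gene. Igf2r, which clears IGF2, had a log2 fold change of 0.05 ± 0.28, and Ghr, the growth hormone receptor that drives Igf1 transcription, of -0.15 ± 0.15. Pappa, a protease that cleaves IGF-binding proteins, stood at -0.11 ± 0.28, and Grb10, an adaptor that restrains both receptors, at -0.06 ± 0.19.

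Downstream of the receptors, Akt2, the main AKT kinase of insulin-driven glucose uptake, was measured at 233, 230 and 274 CPM in AAV-GFP and at 180, 208 and 178 CPM in AAV-RBM20. The groups did not overlap, and its log2 fold change was -0.38 ± 0.14 with an adjusted p of 0.618 (edgeR). Akt1 stood at 0.05 ± 0.19, the PI3K regulatory subunit gene Pik3r1 at 0.15 ± 0.14, Foxo1, a transcription factor held back by AKT, at -0.10 ± 0.14 and the growth kinase gene Mtor at 0.04 ± 0.25, with adjusted p-values of edgeR's test between 0.755 and 0.974.

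Of the 54 pathway genes tested, 20 (37.0%) had a log2 fold change farther from 0 than any member, beside 46.2% of all genes, and those named next were picked with their values known. The 4 higher genes with an unadjusted p under 0.05 in edgeR were Igf2, Grb14, Inpp5d and Trib1. The 6 lower genes were Stat5b, Igfals, Akt2, Tsc1, Fbxo32 and Trim63. Grb14, an adaptor that inhibits the insulin receptor, was measured at 19.9, 18.6 and 15.4 CPM in AAV-GFP and at 27.3, 25.7 and 26.7 CPM in AAV-RBM20, without overlap, and its log2 fold change was 0.57 ± 0.13 (edgeR, adjusted p = 0.617). Igfals, the acid-labile subunit of the circulating IGF complex, was measured at 3.37, 4.17 and 4.90 CPM and at 2.13, 2.59 and 3.13 CPM in turn, with a log2 fold change of -0.67 ± 0.23 (edgeR, adjusted p = 0.618). The muscle ubiquitin ligase genes Fbxo32 and Trim63, targets of the FOXO factors, had log2 fold changes of -0.42 ± 0.13 and -0.50 ± 0.17 (edgeR, adjusted p = 0.618 for both).

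With both libraries numbered 3 left out, 4 pathway genes passed the threshold in edgeR, beside 4.00% of all genes. These were Grb14 (log2 fold change 0.47 ± 0.08, adjusted p = 0.0130), Lrp1 (0.45 ± 0.07, adjusted p = 0.00859), Igf2 (1.76 ± 0.35, adjusted p = 0.0202) and Fbxo32 (-0.33 ± 0.07, adjusted p = 0.0316). With DESeq2 and the replicate number as a block, Grb14, Trib1, Fbxo32 and Trim63 passed, with adjusted p-values from 0.00375 to 0.0195, beside 2.67% of all genes. No member passed in either.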

How the data were processed

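The 10 members and the pathway and marker lists were chosen with earlier results of these data known. Per the submitters' processing notes, reads were aligned to mm10 with HISAT2, counted per gene with HTSeq and normalised with DESeq2. Versions, annotation release and strand setting are not given in the sources used here. The authors deposited raw counts, and a second table holding a signal that they made by dividing those counts by 1 size factor per library, which was used only to check the columns. Libraries were ribosomal RNA-depleted and stranded. Irs1, Irs2 and Igfbp7 share exonic bases with a gene on the opposite strand (30.9%, 2.56% and 7.03% of their exonic length, with Gm9747, 9530052E02Rik and Polr2b). Their counts are uncertain if strand was not used, and these shares of length do not give the share of reads concerned. Gm9747 held at most 2 counts per library, which does not settle this, since reads over both genes may have been counted for neither.

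Symbols, GRCm38 positions and merged exon lengths came from GENCODE M21. Groups came from the treatment label and replicate numbers from the titles, where a second label numbers the AAV-RBM20 samples differently. Counts were tested with edgeR 4.0.16 in R 4.3.3 (filterByExpr, TMM, robust glmQLFit, glmQLFTest, no covariate), with Benjamini-Hochberg adjustment over 17222 genes, after a test on simulated data. SE is the log2 fold change divided by the square root of F. Deviations from the group means correlated at 0.42, 0.20 and 0.48 between same-numbered libraries, all above 0.1. Same-numbered libraries were therefore paired in the fits with the replicate block and in the same-numbered ratios. All other fits and the permutation tests were unpaired. Differently numbered libraries correlated at -0.42 to 0.22, and AAV-GFP 2 correlated slightly more with AAV-RBM20 1 (0.22) than with AAV-RBM20 2 (0.20), so that the data do not tell the numbers 1 and 2 apart. Alternatives were DESeq2 1.42.0, other factors, no filter, the block and leaving out libraries. All members were named, of the pathway list 12 genes whatever they showed (1 is not reported here) and any called without or with the block (none were), and others as stated. Permutation tests (scipy 1.17.1) used log2 CPM with a prior count of 2, or log2 ratios. No replicate was a copy of another.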

Additional observations from a re-analysis of the deposited data

How the results depend on the processing

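None of the 10 members passed an adjusted p of 0.05 under any of the 15 alternatives, and the lowest adjusted p of a member was 0.0986, for Insr without both libraries numbered 3. Over all genes, 0 passed in edgeR with TMM, the filter, all libraries and no block. The replicate block in edgeR, which pairs same-numbered libraries, gave 25. It brought no member and no pathway gene past the threshold, and Rbm20 past it. DESeq2 gave 75, DESeq2 with the replicate block 459 and no filter on low counts 8, while leaving out libraries gave 0 to 690, the highest without replicate 3. For the pathway list the count was 4 in DESeq2 with the replicate block and 0 to 4 when libraries were left out. Signs of log2 fold changes near 0 turned: Igfbp3 was 0.021 with upper quartile factors, 0.012 with the replicate block and 0.0060 in DESeq2 with the block, and Igfbp4 was -0.0041 without a filter. Leaving out libraries moved the log2 fold change of Igf1 between -0.47 and 0.45, Igf1r between -0.027 and 0.43, Insr between -0.31 and 0.015, Irs2 between -0.013 and 0.40, Igfbp3 between -0.26 and 0.20, Igfbp4 between -0.16 and 0.32, Igfbp5 between -0.38 and 0.0039, Igfbp6 between -0.060 and 0.65 and Igfbp7 between -0.039 and 0.12. Irs1 kept its sign, from -0.25 to -0.12 over all alternatives. Of pathway genes, Igf2r moved between -0.20 and 0.25, Grb10 between -0.18 and 0.11, Pappa between -0.24 and 0.13, Akt1 between -0.086 and 0.29 and Mtor between -0.18 and 0.22. The difference of the mean log2 ratio, AAV-RBM20 minus AAV-GFP, of Igfbp5 over Igf1 moved between -0.58 and 0.31 and that of Igf1 over Igf1r between -0.76 and 0.44, whereas Insr over Igf1r and Irs1 over Irs2 kept their sign without each library. These settings for ratios, and those for pathway genes named outside the fixed rule, were chosen after seeing the data. The cause was not tested. The members had between 238 and 33442 counts per library, and what more depth would add was not tested.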
